A study of Mus musculus with 2 samples.

Results

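Ligands of the TGF-beta and BMP family were followed by cell class and diet in the stromal vascular fraction of mouse epididymal fat, the cells that remain once the adipocytes of the pad have been removed. The family was taken as 8 listed genes out of 27998 in the deposited tables: Tgfb1, Tgfb2, Tgfb3, Bmp2, Bmp4, Bmp6, Inhba and Gdf10. Cells came from C57BL/6 mice by the labels, and from male C57BL/6J mice by the study's methods, with 1 library from mice kept on a low-fat diet (LFD) and 1 from mice kept on a high-fat diet (HFD), each for 24 wk from 6 wk of age. No transgene, deletion or drug was named for either group, and the number of mice behind a library was not given. The treatment label of each sample sets the diet, whereas a free-text protocol shared by both samples calls both diets low in fat.

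Ligands of this family are made as precursors that furin-like proteases cut, and they signal as dimers through pairs of type I and type II receptor kinases. TGF-betas and activins act mainly through Smad2 and Smad3, and BMPs mainly through Smad1, Smad5 and Smad9. TGF-betas leave the cell in a latent complex that integrins or thrombospondin can open, and they are known for driving matrix production and holding back adipocyte differentiation. Bmp2 and Bmp4 are known for committing mesenchymal progenitors to the adipocyte lineage, Bmp6 for iron balance, Inhba for activin A, and Gdf10 (Bmp3b) as a close relative of Bmp3.

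The members lie on 6 chromosomes. In GENCODE M21 (GRCm38), Tgfb1 spans chr7:25687002-25705077, Tgfb2 chr1:186622792-186705989, Tgfb3 chr12:86056745-86079041, Bmp2 chr2:133552159-133562885, Bmp4 chr14:46383520-46390669, Bmp6 chr13:38345107-38500302, Inhba chr13:16011851-16031621 and Gdf10 chr14:33923587-33937983. Bmp4 and Gdf10 share chromosome 14, and Bmp6 and Inhba share chromosome 13. The 250 bases before the RefSeq start (GRCm38.p6) are shown for the 3 members that gave most UMIs. They are Tgfb1, found in all classes, and Tgfb2 and Gdf10, whose UMIs lay mostly in fibroblasts. Capitals mark the TATA motif TATAAA, the GC box GGGCGG and the E-box CACGTG, each searched on both strands and shown as read on the strand printed.
Tgfb1 (chr7:25686752-25687001, plus strand): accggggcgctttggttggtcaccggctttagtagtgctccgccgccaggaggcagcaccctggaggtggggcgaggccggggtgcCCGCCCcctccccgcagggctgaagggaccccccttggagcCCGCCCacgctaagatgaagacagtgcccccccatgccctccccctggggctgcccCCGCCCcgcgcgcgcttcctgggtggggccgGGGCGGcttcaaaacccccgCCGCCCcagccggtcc
Tgfb2 (chr1:186705990-186706239, minus strand): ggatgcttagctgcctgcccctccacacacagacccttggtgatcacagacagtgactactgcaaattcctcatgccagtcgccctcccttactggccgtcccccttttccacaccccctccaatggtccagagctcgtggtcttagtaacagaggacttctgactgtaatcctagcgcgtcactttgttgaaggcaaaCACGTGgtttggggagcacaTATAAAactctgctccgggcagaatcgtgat
Gdf10 (chr14:33923337-33923586, plus strand): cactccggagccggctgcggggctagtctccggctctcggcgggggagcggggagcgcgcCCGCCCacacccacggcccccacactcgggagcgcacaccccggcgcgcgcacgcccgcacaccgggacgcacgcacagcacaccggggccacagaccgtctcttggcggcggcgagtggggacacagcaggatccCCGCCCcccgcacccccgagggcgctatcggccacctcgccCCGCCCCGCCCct
TATAAA was in the Tgfb2 sequence, 31 to 26 bases before the start, and in 12.4% of 32851 promoters of that length. GGGCGG occurred 5 times before Tgfb1 and 4 times before Gdf10, where the last 2 matches overlapped by a base, and it was in 32.7% of all promoters. CACGTG was before Tgfb2 and in 6.02% of all promoters. The number of CG pairs was 21 for Tgfb1, 35 for Gdf10 and 8 for Tgfb2, against a median of 6. Gdf10 and Tgfb2, which both lay mostly in fibroblasts, thus differed in CG content. Sequences of 6 of the 8 members were found, and none was available for Tgfb3 and Bmp2. The matches are letters in a window, not binding sites.

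Transcript molecules were told apart by unique molecular identifiers (UMIs), and droplets by barcodes. The LFD library held 1113 barcodes and 7356278 UMIs and the HFD library 1144 barcodes and 8412325 UMIs, and 0 barcodes were shared between them. At least 200 genes were seen in 1057 LFD and 1117 HFD barcodes. A class needed at least 10 UMIs of Dcn (fibroblast), 3 of Cdh5 and Cldn5 (endothelial), 5 of Rgs5, Kcnj8, Abcc9 and Notch3 (mural), 10 of C1qa, C1qb and C1qc (macrophage) or 2 of Cd3d, Cd3e and Cd3g (T cell). Fibroblasts with at least 3 UMIs of Pi16, Dpp4 and Sema3c, which mark interstitial progenitors, were kept apart as Pi16 fibroblasts. The classes held 204 LFD and 207 HFD fibroblasts, 173 and 84 Pi16 fibroblasts, 98 and 115 endothelial barcodes, 5 and 6 mural barcodes, 229 and 320 macrophages, and 72 and 21 T cells. A further 66 LFD and 121 HFD barcodes met several rules and were set apart, and 210 and 243 met none.

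With 1 library per diet no test between diets was possible, and no p-value is given. Levels are counts per 1e6 UMIs (CPM), taken over the summed UMIs of all barcodes of the class. Intervals are exact 95% intervals (Poisson for CPM, Clopper-Pearson for shares, conditional binomial for ratios) and cover counting error only, not differences between mice. Where a gene had 0 UMIs in a class, the limit given is that of 3 counts. Levels are compared within a gene, since counts of 3' ends were not scaled between genes.

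The class labels were checked against markers that the rules did not use. All 5 fibroblast, 5 endothelial and 5 macrophage markers were present in their own class in both libraries, and of the T cell list 3 of 5 genes were listed in the files, all present in T cells. Summed endothelial markers gave 3544 and 3588 CPM in the endothelial class and at most 26.4 CPM in the fibroblast classes. The mural label did not stand on its own. Of the barcodes meeting several rules, 51 LFD and 92 HFD barcodes met only the endothelial and mural rules together, carrying Pdgfrb at 223 and 271 CPM beside Kdr at 848 and 712 CPM. They had a median of 13270 and 9029 UMIs, against 4318 and 3156 in the endothelial class. The mural class that was left summed to only 17423 and 9334 UMIs, in which 3 counts correspond to 172 and 321 CPM, so that levels of most members could not be seen there. A single UMI of Tgfb1 per library was the only member UMI in it.

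The 8 members divided by class. Tgfb1 was in every class and led in macrophages, Gdf10 led in fibroblasts, Tgfb2 led in Pi16 fibroblasts, and Bmp2 stood in both Pi16 fibroblasts and macrophages. Of the UMIs in barcodes with at least 200 genes, the fibroblast classes together held 95.3% of 1004 for Gdf10, 91.7% of 551 for Tgfb2, 90.7% of 54 for Inhba, 80.1% of 141 for Tgfb3 and 67.0% of 94 for Bmp4. They held 42.9% of 315 for Bmp2, whose macrophage share was 41.9%. Of the 2506 UMIs of Tgfb1, 49.2% were in macrophages and 4.55% in fibroblasts. Bmp6 had 29 UMIs in all, 9 in Pi16 fibroblasts and 9 in endothelial barcodes.

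**Figure D1:**
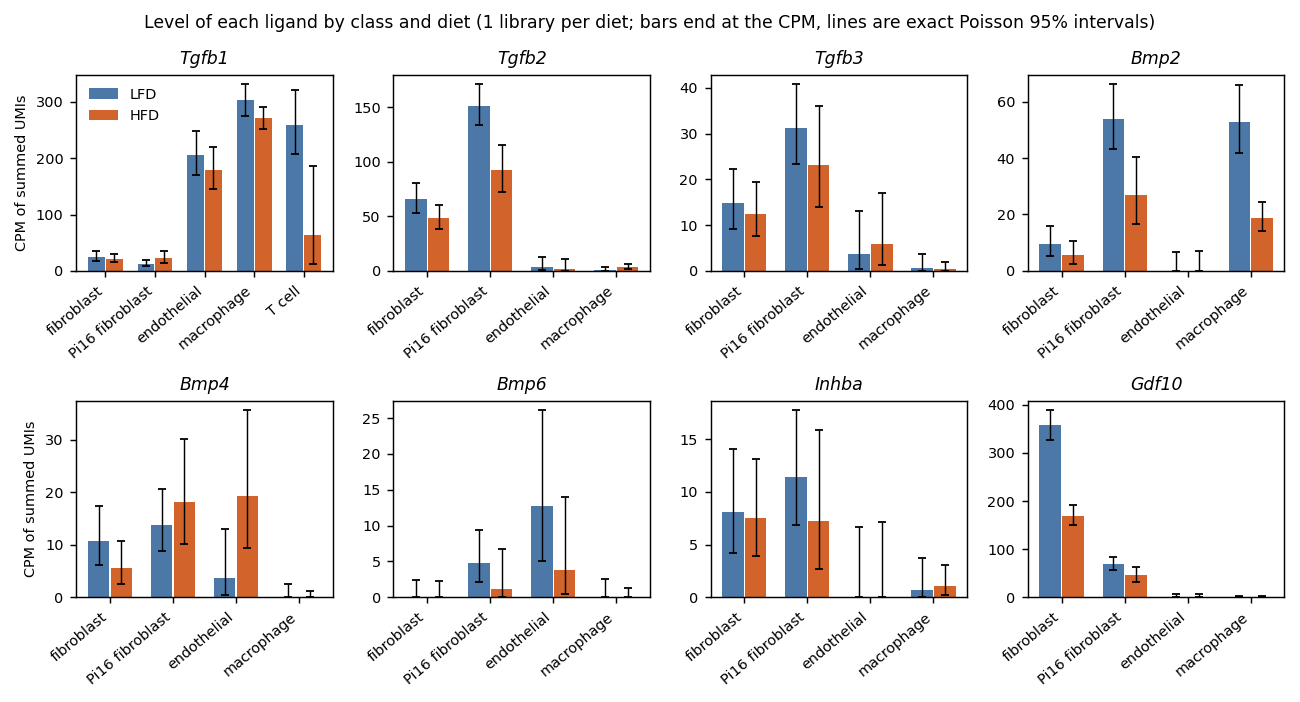
CPM of each ligand (y axis, a scale of its own per gene) by class (x axis), with LFD in blue and HFD in orange, 1 library each, and exact Poisson 95% intervals as lines. Tgfb1 is highest in macrophages and Gdf10 in fibroblasts. The mural class is left out because of its few UMIs, and T cells are drawn for Tgfb1 only, since the other members had 0 to 2 UMIs there.

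Tgfb1, the ligand best known for fibrosis and for immune restraint, was at 303 CPM (275 to 332) in LFD and 271 CPM (252 to 291) in HFD macrophages. Endothelial barcodes followed with 206 CPM (170 to 248) and 180 CPM (145 to 221). Macrophages lay 1.47-fold above endothelial barcodes on LFD (interval 1.19 to 1.82) and 1.5-fold on HFD (1.21 to 1.89). Of the neighbours in the order of Tgfb1 by mean level, only these had intervals that lay apart in both libraries, and LFD T cells, at 259 CPM (207 to 320), overlapped with both. Without 6 LFD barcodes that held macrophage markers, LFD T cells were at 199.998 CPM (145 to 268), below the interval of LFD macrophages. Fibroblasts had 25.5 CPM (18.05 to 35.0) and 21.9 CPM (15.2 to 30.4), so that macrophages were 11.9-fold and 12.4-fold higher. Pi16 fibroblasts had 13.2 CPM (8.26 to 19.9) and 23.1 CPM (13.9 to 36.0), or 0.517 times (0.291 to 0.896) the level of the other fibroblasts on LFD and 1.05 times (0.570 to 1.89) on HFD.

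A UMI of Tgfb1 was seen in 76.0% of LFD macrophages (69.9 to 81.4%) and 80.3% of HFD macrophages (75.5 to 84.5%). In endothelial barcodes the shares were 51.0 and 46.1%, at a median depth of 4318 and 3156 UMIs against 6313 and 6897 in macrophages. After thinning to 1000 UMIs the shares became 23.7 and 24.5% in macrophages, 17.6 and 15.6% in endothelial barcodes, and 1.51 and 2.93% in fibroblasts. No class here is known to lack Tgfb1. In Pi16 fibroblasts, at median depths of 9420 and 9556 UMIs, 2 of 173 LFD and 0 of 84 HFD barcodes kept a UMI after thinning. At full depth 10.98% of LFD and 17.9% of HFD Pi16 fibroblasts held one, against 16.2 and 13.5% of the other fibroblasts. Tgfb1 was also the one member seen broadly outside the classes: dendritic-like barcodes had 209 and 162 CPM, monocyte-like barcodes 438 and 295 CPM, and B cell-like barcodes 198 and 356 CPM, on 9 to 50 UMIs each. The 20 LFD and 6 HFD adipocyte-like barcodes held 0 UMIs of Tgfb1, where 3 counts would be 62.9 and 252 CPM.

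Tgfb1 did not differ between kinds of HFD macrophage beyond counting error. Barcodes were split by the larger of a lipid-associated sum (Cd9, Trem2, Gpnmb and Spp1) and a resident sum (Lyve1, Timd4, Folr2 and Cbr2). The lipid-associated kind held 2 LFD and 146 HFD barcodes, and the resident kind 213 and 151, with 14 and 23 ties. On HFD, Tgfb1 was at 280 CPM (255 to 306) in the lipid-associated kind and 255 CPM (225 to 288) in the resident kind, a ratio of resident to lipid-associated of 0.913 (0.782 to 1.06). Resident barcodes on LFD had 308 CPM (279 to 340), so that their HFD to LFD ratio was 0.827 (0.706 to 0.969).

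Bmp2, an osteogenic and adipogenic BMP, was higher in the resident kind. Resident macrophages carried it at 58.2 CPM (45.9 to 72.8) on LFD and 36.2 CPM (25.5 to 49.9) on HFD, and the HFD lipid-associated kind at 9.84 CPM (5.73 to 15.8). Within the HFD library the resident kind was 3.68-fold higher (2.02 to 6.96). Over all macrophages Bmp2 stood at 52.7 CPM (41.7 to 65.8) on LFD and 18.6 CPM (14.0 to 24.3) on HFD, a ratio of 0.353 (0.245 to 0.506). Within resident macrophages alone the ratio was 0.621 (0.408 to 0.931). The share of macrophages with a Bmp2 UMI was 25.3% (19.8 to 31.5%) on LFD and 11.9% (8.54 to 15.9%) on HFD, or 4.02 and 2.19% after thinning. Endothelial barcodes had a UMI in 0 of 98 and 0 of 115. By the limit of 3 counts this allows up to 3.06 and 2.61% of barcodes with a UMI at these depths. It sets no limit on barcodes that express the gene.

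**Figure D2:**
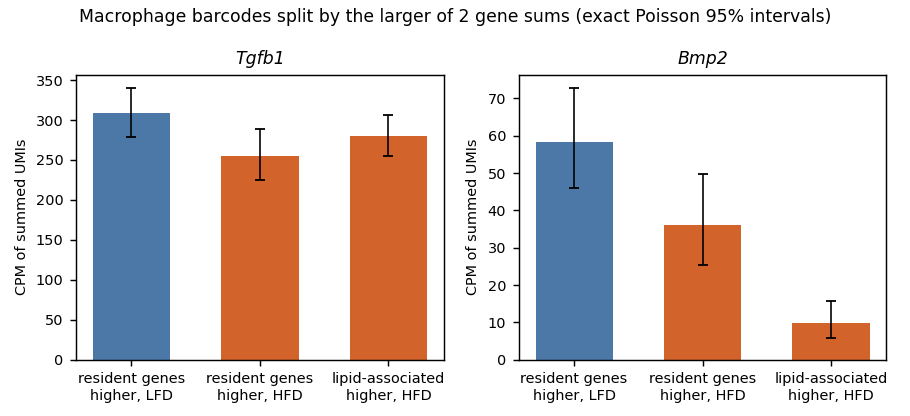
CPM of Tgfb1 (left) and Bmp2 (right) in macrophage barcodes whose resident gene sum was higher, on LFD (blue) and HFD (orange), and in HFD barcodes whose lipid-associated sum was higher. Lines are exact Poisson 95% intervals. Tgfb1 lies between 255 and 308 CPM in all 3 groups, while Bmp2 goes from 58.2 to 36.2 to 9.84 CPM. The 2 LFD barcodes of the lipid-associated kind are not drawn.

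Gdf10 was highest in the fibroblasts outside the Pi16 class. It was at 357 CPM (327 to 389) in LFD and 169 CPM (150 to 191) in HFD fibroblasts, and at 69.5 CPM (57.4 to 83.3) and 46.2 CPM (32.7 to 63.4) in Pi16 fibroblasts. Pi16 fibroblasts were thus at 0.195 times (0.158 to 0.238) the level of the others on LFD and 0.272 times (0.189 to 0.383) on HFD. A UMI was seen in 68.6% of LFD fibroblasts (61.8 to 74.9%) and 53.6% of HFD fibroblasts (46.6 to 60.6%), with the median depths close, at 7888 and 7546 UMIs. Thinned, the shares were 23.1 and 14.6%. Macrophages, as the background, had a UMI in 0 of 229 and 1 of 320 barcodes.

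Tgfb2, a TGF-beta isoform that mesenchymal cells and epithelia make, had the reverse order. Pi16 fibroblasts carried it at 152 CPM (133 to 171) on LFD and 92.3 CPM (72.7 to 116) on HFD, against 65.8 CPM (53.4 to 80.2) and 48.8 CPM (38.6 to 60.9) in the other fibroblasts, ratios of 2.30 (1.82 to 2.94) and 1.89 (1.36 to 2.63). A UMI was seen in 59.0 and 45.2% of Pi16 fibroblasts and in 26.0 and 22.7% of the others, or in 10.4, 8.33, 8.54 and 3.90% after thinning. Macrophages had a UMI in 1 of 229 and 2 of 320 barcodes, and the 10 HFD UMIs came from those 2.

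Bmp2 in stroma also sat with Pi16. It was at 53.9 CPM (43.3 to 66.2) in LFD and 26.7 CPM (16.7 to 40.5) in HFD Pi16 fibroblasts, 5.74-fold (3.25 to 10.9) and 4.75-fold (2.10 to 11.7) above the other fibroblasts. Over all barcodes Pi16 fibroblasts and macrophages had Bmp2 at levels whose ratio had an interval that held 1: on LFD the ratio of macrophages to Pi16 fibroblasts was 0.978 (0.713 to 1.34), and on HFD it was 0.696 (0.417 to 1.20). With 200 to 2500 genes and under 5% mitochondrial UMIs, Pi16 fibroblasts lay above macrophages by 1.30 on the log2 scale of mean CPM, against 0.18 over all barcodes, a shift beyond the counting interval.

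Part of the fibroblast classes carried mesothelial markers. At least 5 UMIs of Msln, Upk3b, Lrrn4 and Krt19, genes of the lining of the fat pad, were seen in 29 LFD and 14 HFD barcodes of both fibroblast classes, 25 and 12 of them in the Pi16 class, whose rule counts Dpp4. This split was chosen after the data had been seen. These barcodes carried Upk3b at 2431 and 2503 CPM, whereas the others had at most 1 UMI of it per library and class. Upk3b is in the rule, so this contrast was set by the split. Wt1, which the rule did not use, was at 322 and 335 CPM in the mesothelial-marker barcodes. It was at 188 and 138 CPM in the remaining Pi16 fibroblasts and 160 and 149 CPM in the other fibroblasts. The mesothelial-marker barcodes of the Pi16 class held 18 of its 23 LFD and 9 of its 15 HFD UMIs of Bmp4. Of its Tgfb3 they held 33 of 52 UMIs on LFD and 5 of 19 on HFD.

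Tgfb3, another TGF-beta isoform, was at 93.7 CPM (64.9 to 131) in the LFD barcodes with mesothelial markers and 32.2 CPM (10.4 to 75.1) in the HFD ones. Pi16 fibroblasts without these markers had 14.3 CPM (8.58 to 22.3) and 20.8 CPM (11.4 to 35.0), and the other fibroblasts 14.3 CPM (8.88 to 21.9) and 12.5 CPM (7.66 to 19.4). Bmp4 was at 49.6 CPM (29.4 to 78.4) and 57.9 CPM (26.5 to 110) in the mesothelial-marker barcodes and at 3.75 CPM (1.22 to 8.75) and 8.93 CPM (3.28 to 19.4) in the remaining Pi16 fibroblasts. Gdf10 had 1 UMI in the LFD and 0 in the HFD barcodes with mesothelial markers.

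**Figure D3:**
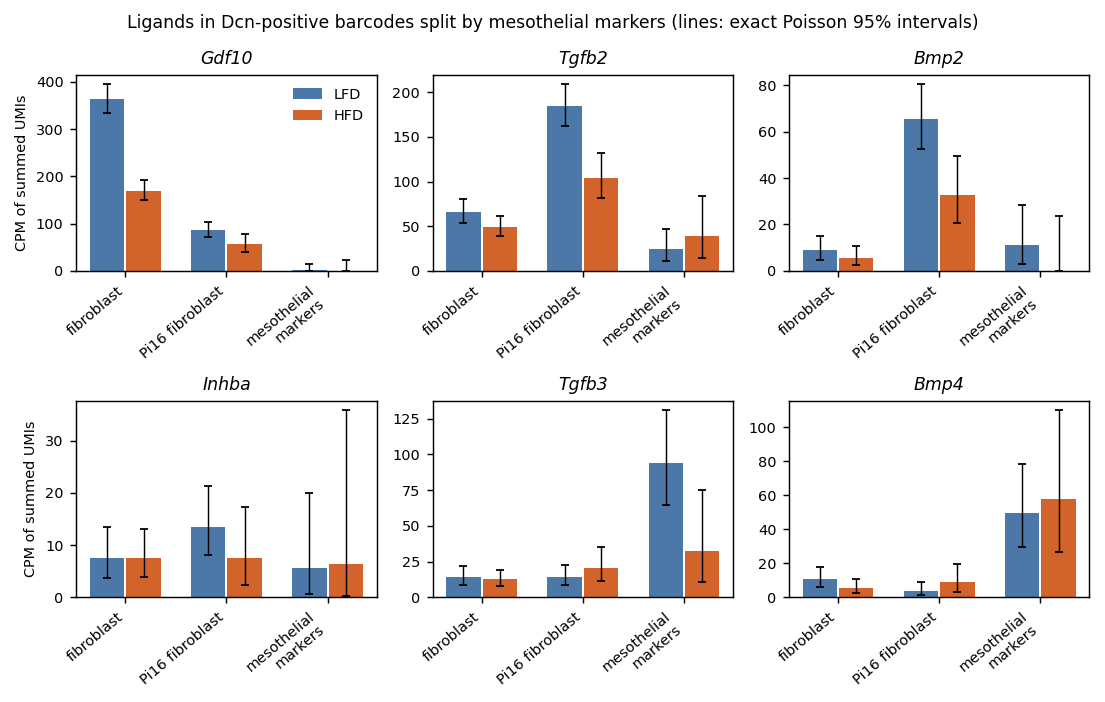
CPM of 6 ligands in the fibroblast class, the Pi16 fibroblast class (both without barcodes holding mesothelial markers) and in the barcodes of either class that hold them. Bars are LFD (blue) and HFD (orange), with exact Poisson 95% intervals. Gdf10 is highest in the first group, Tgfb2 and Bmp2 in the second, and Tgfb3 (LFD) and Bmp4 in the third.

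Once those barcodes were left out, the ligands were followed along the amount of Pi16, Dpp4 and Sema3c in a barcode, in ranges also chosen after the data had been seen. On LFD, Gdf10 was at 368 CPM (328 to 411) where the sum was 0 and at 48.2 CPM (32.7 to 68.3) where the sum was above 1000 and up to 3000 CPM. Between these it was at 336 and 206 CPM, and in the 18 LFD barcodes above 3000 CPM at 55.7 CPM (22.4 to 115). Over the same ranges Tgfb2 went from 72.2 CPM (55.2 to 92.8) to 235 CPM (199 to 275), and Bmp2 from 13.02 CPM (6.50 to 23.3) to 54.4 CPM (37.9 to 75.6). Tgfb2 was at 61.97 and 114 CPM in between and back at 135 CPM (78.8 to 217) above 3000 CPM, and Bmp2 at 4.77 and 60.2 CPM in between and 47.8 CPM (17.5 to 104) above. On HFD the values were 169 and 64.7 CPM for Gdf10, 51.1 and 101 CPM for Tgfb2, and 5.57 and 18.0 CPM for Bmp2. Between a sum of 0 and the range of 1000 to 3000 CPM the directions were shared by the libraries for these 3 genes, while the HFD interval of Bmp2 above 1000 CPM (5.84 to 42.0) overlapped that at 0 (2.04 to 12.1). The diets were apart in Gdf10 at a sum of 0, and above 1000 CPM its HFD interval (38.4 to 102) overlapped that of LFD.

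**Figure D4:**
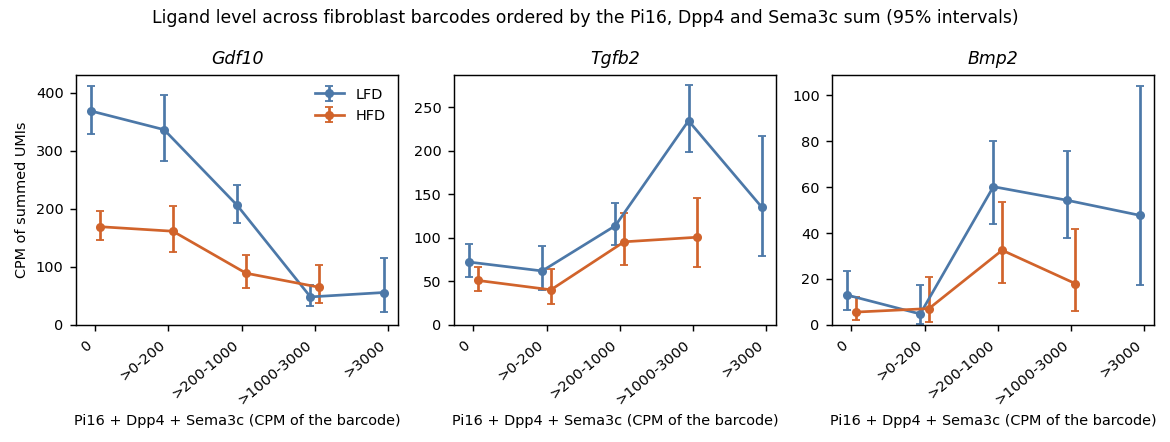
CPM of Gdf10, Tgfb2 and Bmp2 (y axis) in fibroblast barcodes without mesothelial markers, by the summed CPM of Pi16, Dpp4 and Sema3c in the barcode (x axis, unequal ranges), for LFD (blue) and HFD (orange) with exact Poisson 95% intervals. On LFD, Gdf10 goes from 368 CPM at 0 to 48.2 CPM at 1000 to 3000 and 55.7 CPM above it, and Tgfb2 from 72.2 to 235 and then 135 CPM. The top LFD range held 18 barcodes, and the top HFD range held 4 barcodes and is not drawn.

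Inhba, the activin A subunit, was at the edge of detection, with 12 and 12 UMIs in fibroblasts and 19 and 6 in Pi16 fibroblasts, of which 8 LFD UMIs were in a single barcode. These are 8.05 CPM (4.16 to 14.1), 7.50 CPM (3.88 to 13.1), 11.4 CPM (6.85 to 17.8) and 7.29 CPM (2.67 to 15.9), whose intervals overlap. Macrophages held 1 and 3 UMIs of it and endothelial barcodes 0 and 0.

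Endothelial barcodes held few UMIs of the BMPs. Bmp6 had 7 LFD and 2 HFD UMIs there, 12.7 CPM (5.09 to 26.1) and 3.87 CPM (0.469 to 14.0), and Bmp4 2 and 10 UMIs, 3.62 CPM (0.438 to 13.1) and 19.4 CPM (9.28 to 35.6). With under 20 UMIs over both libraries no diet ratio was taken for either. Nearly all endothelial barcodes were of the capillary kind, 93 on LFD and 111 on HFD, so that vessel types could not be compared. The barcodes meeting both the endothelial and the mural rule had Tgfb1 at 215 CPM (183 to 250) and 234 CPM (204 to 267), 1.04 times (0.814 to 1.33) and 1.30 times (1.01 to 1.67) the endothelial level. They also held 8 and 15 UMIs of Bmp2, at 10.6 CPM (4.58 to 20.9) and 15.9 CPM (8.92 to 26.3), whereas endothelial barcodes held 0 and 0, where 3 counts would be 5.43 and 5.81 CPM.

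A diet ratio, HFD over LFD, was taken for the 18 pairs of member and class with at least 20 UMIs over both libraries. It was under 1 in 16 of them, and its interval left out 1 in 6, all lower on HFD. These were Gdf10 in fibroblasts at 0.475 (0.409 to 0.550) and in Pi16 fibroblasts at 0.665 (0.448 to 0.966), Tgfb2 in Pi16 fibroblasts at 0.609 (0.465 to 0.790), Bmp2 in Pi16 fibroblasts at 0.496 (0.296 to 0.797) and in macrophages at 0.353 (0.245 to 0.506), and Tgfb1 in T cells at 0.247 (0.0499 to 0.745). These counts are set against all genes with at least 20 UMIs in the class. In fibroblasts, where 7 of 7 members were under 1 and 1 had an interval below 1, 52.8% of 8964 genes were under 1 and 10.8% had an interval below 1, with 9.37% above. In Pi16 fibroblasts the members counted 5 and 3 of 7, against 50.9% under 1, 7.22% with an interval below 1 and 7.17% above. In macrophages they counted 2 and 1 of 2, against 52.1%, 19.2% and 18.2% of genes. In endothelial barcodes Tgfb1 was under 1 with an interval that held 1, against 50.2%, 5.5% and 5.15%, and in T cells its interval was below 1, against 56%, 6.17% and 5.64%. Tgfb2 in the other fibroblasts was at 0.742 (0.544 to 1.01). Tgfb1 was at 0.895 (0.796 to 1.01) in macrophages, 0.873 (0.657 to 1.16) in endothelial barcodes, 0.858 (0.526 to 1.40) in fibroblasts and 1.75 (0.897 to 3.39) in Pi16 fibroblasts. Bmp4 in Pi16 fibroblasts, at 1.32 (0.642 to 2.65), was the other pair above 1. In fibroblasts Tgfb2, Bmp4 and Gdf10 stayed lower on HFD in all other ways of processing. Tgfb1, Tgfb3, Bmp2 and Inhba there did not, reaching 0.54, 0.13, 0.18 and 0.18 on the log2 scale. After thinning each barcode to 1000 UMIs, the log2 difference of Tgfb2 in Pi16 fibroblasts was 0.042 in place of -0.71, and that of Tgfb1 in macrophages 0.20 in place of -0.16, while Gdf10 in fibroblasts (-0.86) and Bmp2 in macrophages (-0.66) stayed lower on HFD. With the limits of 200 to 2500 genes and 5% mitochondrial UMIs that the study's methods state, Bmp2 in Pi16 fibroblasts was at -0.36 in place of -1.01 and Gdf10 there at -2.88 in place of -0.59.

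The mesothelial-marker barcodes bear on these ratios. Without them, Pi16 fibroblasts gave 0.564 (0.426 to 0.739) for Tgfb2, 0.502 (0.299 to 0.808) for Bmp2 and 0.655 (0.442 to 0.953) for Gdf10, and fibroblasts 0.468 (0.403 to 0.542) for Gdf10. For Tgfb3 in Pi16 fibroblasts the ratio went from 0.741 (0.414 to 1.27) to 1.46 (0.678 to 3.07), so that its direction turned, with both intervals including 1. Bmp4 in Pi16 fibroblasts was left with 5 LFD and 6 HFD UMIs, and its log2 difference went from 0.40 to 1.25, on too few UMIs for a ratio. Within the mesothelial-marker barcodes themselves Tgfb3 was at 0.343 (0.105 to 0.882).

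The T cell value rested on few molecules, 85 LFD UMIs in 34 barcodes and 3 HFD UMIs in 3 barcodes. All 5 macrophage check markers were present in the LFD T cells, at a summed 326 CPM (21.3 to 91.5 CPM each), against 42.6 CPM and 3 of 5 at 0 in the HFD T cells. In 6 LFD barcodes and 0 HFD barcodes these markers reached 3 UMIs, and those 6 held 41 of the 85 UMIs of Tgfb1. Without them 44 LFD and 3 HFD UMIs were left, a ratio of 0.320 (0.0635 to 0.997). On the log2 scale the difference was -2.02 over all T cells. It was -0.80 after thinning to 1000 UMIs, with 21.7% of LFD and 15.0% of HFD barcodes holding a UMI, and -0.83 with 200 to 2500 genes and under 5% mitochondrial UMIs. Counting barcodes of several rules gave -1.25 and a mean over barcodes -1.38.

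**Figure D5:**
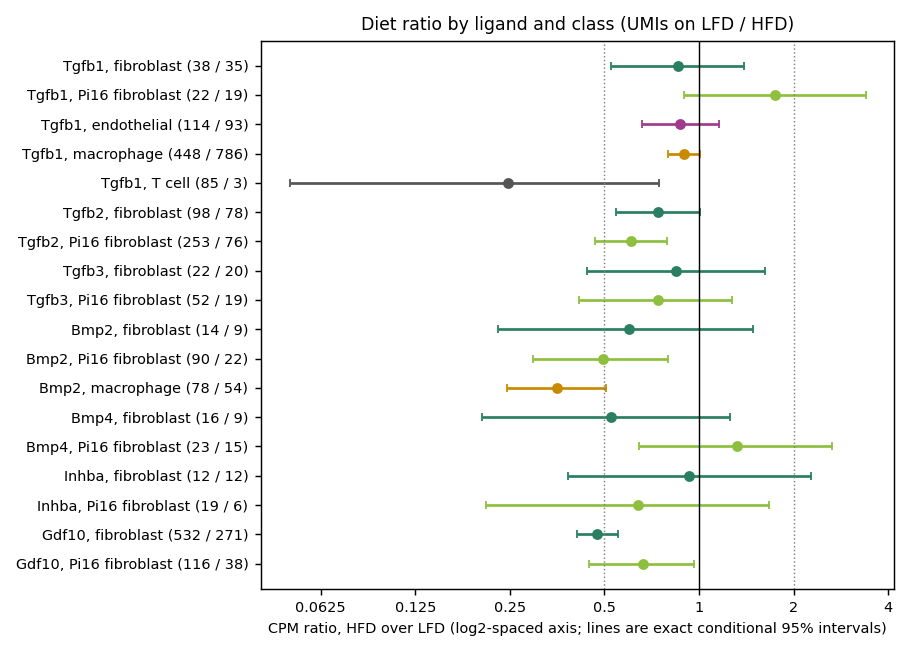
Ratio of CPM, HFD over LFD (x axis, log2 spacing), for each of the 18 pairs of ligand and class with at least 20 UMIs, with the UMIs on each diet beside the name and exact conditional 95% intervals as lines. Colours are classes and dotted lines mark 2-fold. The intervals of 6 pairs lie below 1, and Gdf10 in fibroblasts has the narrowest of them, 0.409 to 0.550.

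Members past a size rule of at least 2-fold, with 0.5 UMIs added to each library, were counted beside the share of all genes past it. In fibroblasts 1 of the 7 members with at least 20 UMIs was 2-fold lower on HFD (Gdf10), where 4.21% of 8964 genes were, and 0 were 2-fold higher, where 2.43% were. In Pi16 fibroblasts 0 of 7 were lower and 0 higher, against 3.4% and 2.29% of 8763 genes. Bmp2, whose plain ratio there was 0.496, had a log2 difference of -0.99 with the 0.5 UMIs added and so lay just inside 2-fold. In macrophages 1 of 2 was lower (Bmp2), against 7.6% of 9184 genes, and 0 higher, against 6.32%. Bmp2 lay inside 2-fold after thinning (-0.66 on the log2 scale). Within resident macrophages 0 of 2 members passed, Bmp2 being at 0.621 (0.408 to 0.931), where 3.32% of 7857 genes were lower and 1.95% higher. In endothelial barcodes Tgfb1, the 1 member tested, passed in neither direction, the shares of all genes being 3.22% lower and 2.24% higher. In T cells it was lower, as were 14.9% of 2837 genes, while 6.63% were higher. The median log2 difference of the 7 members was -0.43 in fibroblasts and -0.56 in Pi16 fibroblasts, against -0.03 and -3.3e-05 over all genes tested.

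Over whole libraries, fewer cells of a class and less RNA of a gene per cell cannot be told apart. Tgfb2 was at 49.7 CPM on LFD and 22.5 CPM on HFD, a ratio of 0.453 (0.378 to 0.542), lower than within either fibroblast class, and Pi16 fibroblasts were 16.4% of LFD and 7.52% of HFD barcodes. Gdf10 was at 92.4 and 39.5 CPM, a ratio of 0.427 (0.373 to 0.488). Tgfb1 alone was higher on HFD, at 146 and 172 CPM, a ratio of 1.18 (1.09 to 1.28), whereas its ratio within macrophages was 0.895, and macrophages were 21.7% of LFD and 28.6% of HFD barcodes. Bmp2 was at 0.492 (0.388 to 0.622), Tgfb3 at 0.539 (0.376 to 0.765), Bmp4 at 0.764 (0.497 to 1.17), Bmp6 at 0.457 (0.190 to 1.03) and Inhba at 0.597 (0.330 to 1.06).

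The rest of the pathway was taken from 7 lists of 98 genes in all. For every list count below, the shares of all genes past 2-fold were 2.43% higher and 4.21% lower on HFD in fibroblasts, 2.29% and 3.4% in Pi16 fibroblasts, 2.24% and 3.22% in endothelial barcodes, 6.32% and 7.6% in macrophages and 6.63% and 14.9% in T cells. Among the 25 other ligands, 10 had 0 UMIs in any barcode and 7 reached 20 UMIs. In macrophages both ligands with at least 20 UMIs were over 2-fold higher on HFD. The make-up of that class differed between the libraries, barcodes with the lipid-associated sum higher numbering 2 on LFD and 146 on HFD. Over the whole class 15 of 34 pathway genes with at least 20 UMIs passed 2-fold, where 6.32% of 9184 genes were higher and 7.6% lower. Within the 213 LFD and 151 HFD resident macrophages 1 of 25 did, Gdf15, where 1.95% of 7857 genes were higher and 3.32% lower, so that fewer genes of any kind passed there. Gdf15, a stress-induced member, went from 37.2 to 191 CPM, a ratio of 5.13 (3.88 to 6.90), and Gdf3 from 2 to 143 UMIs, 1.35 to 49.3 CPM, a ratio of 36.5 (9.91 to 304). Within resident macrophages Gdf15 was at 20.4 and 138 CPM, a ratio of 6.75 (4.45 to 10.6), and Gdf3 held 1 and 5 UMIs. In Pi16 fibroblasts 2 of 3 were lower, Bmp7 at 0.296 (0.113 to 0.658) and Inhbb, an activin B subunit, at 0.406 (0.226 to 0.688). Ratios of list genes in this class include its barcodes with mesothelial markers, 25 of 173 on LFD and 12 of 84 on HFD. In endothelial barcodes 1 of 2 was higher, Inhbb at 3.13 (1.63 to 6.40), and in fibroblasts 1 of 3 was higher.

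Among the receptors, in macrophages 1 of 9 was higher, the type I receptor Tgfbr1 at 2.98 (1.85 to 5.06), and 2 were lower (all genes 6.32% and 7.6%), of which the type II receptor Tgfbr2 was at 0.483 (0.418 to 0.558). Within resident macrophages Tgfbr1 was at 1.55 (0.822 to 2.96) and Tgfbr2 at 0.882 (0.752 to 1.03). In fibroblasts 2 of 12 were higher, of which Rgmb, a BMP co-receptor, was at 2.88 (1.76 to 4.89). In Pi16 fibroblasts 1 of 12 was lower and in endothelial barcodes 0 of 8 passed. Levels by class are given for 3 receptors and a target that were chosen after their values had been seen. Bmpr1a, a type I receptor for BMPs, was at 75.2 and 95.1 CPM in fibroblasts, 3.62 and 1.94 CPM in endothelial barcodes and 1.35 and 1.72 CPM in macrophages. Eng, a co-receptor of endothelium, was at 503 and 517 CPM in endothelial barcodes and 63.1 and 72.5 CPM in fibroblasts. Tgfbr2 was at 420 and 570 CPM in Pi16 fibroblasts, 235 and 284 CPM in fibroblasts, 266 and 129 CPM in macrophages and 130 and 165 CPM in endothelial barcodes. Id1, a BMP target, was at 528 and 631 CPM in endothelial barcodes and 38.9 and 22.5 CPM in fibroblasts.

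Of the TGF-beta targets, 2 of 8 in fibroblasts were over 2-fold higher on HFD, where 2.43% of all genes were, Pmepa1 at 2.19 (1.73 to 2.79) and Ctgf (Ccn2), a matricellular protein, at 2.94 (1.54 to 5.98). In Pi16 fibroblasts 3 of 8 were, against 2.29% of all genes, among them Ctgf at 2.37 (1.53 to 3.70). In endothelial barcodes 1 of 5 was, against 2.24%, Pmepa1 at 2.50 (1.47 to 4.38). In macrophages 2 of 7 were higher, against 6.32%, among them Skil at 2.14 (1.61 to 2.89), and Tgfbi was lower at 0.391 (0.359 to 0.425). Tgfbi was also under 1 in fibroblasts, at 0.527 (0.367 to 0.748), and in Pi16 fibroblasts, at 0.541 (0.260 to 1.04). In each of these classes 6 of 8 TGF-beta targets were above 0 on the log2 scale. Medians of the list were 0.38 in fibroblasts, 0.53 in Pi16 fibroblasts, 0.86 in endothelial barcodes and 0.30 in macrophages. Of the BMP targets, 0 of 6 in fibroblasts, 0 of 5 in Pi16 fibroblasts and 0 of 6 in endothelial barcodes passed. Their medians on the log2 scale were -0.41, -0.47 and 0.08. In macrophages 1 of 3 was higher, Id3 at 2.65 (1.79 to 4.03), and the median was 0.50. The Smads passed in 0 of 6 in fibroblasts, Pi16 fibroblasts and endothelial barcodes, and in macrophages 1 of 6 was lower, Smad5 at 0.455 (0.276 to 0.748). Within resident macrophages these 4 genes were within 2-fold, Skil at 1.61 (1.11 to 2.36), Tgfbi at 0.641 (0.581 to 0.708), Id3 at 1.89 (1.09 to 3.31) and Smad5 at 0.761 (0.415 to 1.36).

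Of the genes of latency and activation, 5 of 7 in macrophages were over 2-fold higher on HFD, where 6.32% of 9184 genes were. They include Itgb5 at 4.63 (3.08 to 7.23) and Itgav at 3.54 (2.18 to 6.07), which pair as an integrin that binds latent TGF-beta, Thbs1, a latency opener, at 5.30 (2.13 to 17.0), and Ltbp3, a latent TGF-beta binding protein, at 2.55 (1.32 to 5.403). Within resident macrophages 0 of the 4 with at least 20 UMIs passed, Itgb5 being at 1.60 (0.916 to 2.83) and Itgav at 0.808 (0.328 to 1.89), while Thbs1 held 1 LFD and 0 HFD UMIs and Ltbp3 9 and 4. Thbs1 was also higher in Pi16 fibroblasts, at 2.39 (2.07 to 2.76), where 1 of 14 was higher and 1 lower. In fibroblasts 1 of 14 was higher, Lrrc32, which anchors latent TGF-beta at the cell surface, at 2.17 (1.33 to 3.67), and 1 was lower. Endothelial barcodes had 0 of 6. Furin, the protease that cuts the precursors, went from 56 to 0 UMIs in T cells, where 3 counts on HFD are 63.9 CPM against 171 CPM on LFD, and 1 of 3 latency genes was lower there. Without the 6 LFD barcodes that held macrophage markers Furin had 36 and 0 UMIs, or 164 CPM on LFD. In macrophages it was at 94.6 and 127 CPM. Of the inhibitors, 2 of 9 in fibroblasts were lower, where 4.21% of 8964 genes were, and 0 of 9 in Pi16 fibroblasts and 0 of 2 in endothelial barcodes and macrophages passed. The T cell class, with 46943 HFD UMIs, otherwise had 3 pathway genes past 2-fold, named here after their values had been seen. Smad4 was higher on 17 LFD and 5 HFD UMIs, a ratio of 2.05 (0.593 to 5.80), and Smad7, an inhibitory Smad that stands in 3 of the lists, on 32 and 9 UMIs, 1.96 (0.825 to 4.21), while Skil was lower on 36 and 2 UMIs, 0.388 (0.0453 to 1.51). All 3 intervals held 1. Without the barcodes with macrophage markers 1 of 4 pathway genes with at least 20 UMIs passed, Furin. Smad7 was then at 1.36 (0.570 to 2.93), and Smad4 and Skil had under 20 UMIs.

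For members with at least 100 UMIs in the classes, the genes of most similar pattern were found by the correlation of log2(CPM + 10) over 12 points, 6 classes in each of 2 libraries. The points share libraries, and 8936 genes were compared. Gdf10 was nearest to Sox9 (r = 0.998), C7 (0.998) and Pdgfrl (0.996), and Tgfb2 to Efs (0.994), Adgrd1 (0.994) and Lgi4 (0.992). Tgfb1 was nearest to Tm6sf1 (0.944), Lyn (0.917) and Ostf1 (0.899), Bmp2 to Hpse (0.949), Cmah (0.942) and Sulf2 (0.941), and Tgfb3 to Ddr1 (0.989), Fez1 (0.989) and Spsb1 (0.987). Without the mural points, which rest on few UMIs, Tgfb1 was nearest to Lyn (0.982), Crlf2 (0.976) and Tm6sf1 (0.957), Sema5a (0.994) took the place of Lgi4 for Tgfb2, and the 3 nearest genes of the other members stayed, in another order for Bmp2 and Tgfb3.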

How the data were processed

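Epididymal fat stromal cells were profiled with 10x Chromium 3' v3 chemistry, in 1 library per diet. The authors counted UMIs with Cell Ranger on mm10 and deposited raw counts per gene and barcode; the file headers name version 3.0.2, and the methods another. The diet groups come from the labels.

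Barcodes with at least 200 genes were classed by the marker sums given above, without the upper limits of 2500 genes and 5% mitochondrial UMIs that the methods state, which leave 294 LFD and 352 HFD barcodes and were an alternative. The members, lists and class rules were chosen with earlier results of these data known. Named genes are the 8 members, the 3 nearest in pattern for each with at least 100 UMIs, and list genes past 2-fold with at least 50 UMIs in a class, at most 4 per list and class. Bmpr1a, Eng and Id1, the levels of Tgfbr2 by class, and Smad4, Smad7 and Skil in T cells were chosen after their values were seen. So were Tgfbi and Wt1 in the fibroblast classes. All of these fall outside the rule for named genes. A gene that met this rule is not reported here. Ltbp4 has several rows, which were summed, and older symbols were used where the files hold them. No column of comparisons by the authors was present.

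CPM are UMIs per 1e6 UMIs of a class, and a ratio needed 20 UMIs over both libraries. Exact 95% intervals cover counting error only, since reads of 1 library are no replicates. Thinning drew 1000 UMIs per barcode and left out shallower ones. Doublets were kept in the main values; Scrublet, at an expected rate of 1%, marked 1.51% of LFD and 1.7% of HFD barcodes. On simulated counts of 8964 fibroblast and 9184 macrophage genes, with 200 changed 4-fold, the interval held the true ratio for 96.2% and 96.2%, and 98.5% and 99% of changed genes passed 2-fold, as did 1.93% and 1.75% of unchanged genes. Gdf10 in fibroblasts (0.475) and Bmp2 in macrophages (0.353) changed by less than 4-fold, so the shares for changed genes do not speak for changes of their size. The work used Python 3.11.15, numpy 2.4.6, scipy 1.17.1, pandas 2.3.3, scanpy 1.11.5 and matplotlib 3.10.9.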

Additional observations from a re-analysis of the deposited data

How the results depend on the processing

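The 31 values were recomputed in the other ways that bear on each, among them 4 chosen after seeing the data (leaving out barcodes with mesothelial markers, T cells with macrophage markers, or the mural class, and taking resident macrophages alone). Of the recomputed values 273 stayed within the counting interval, or within 1.5 times a count, 26 moved beyond it, some of them across 0, 1 more reversed, and 7 could not be given for lack of UMIs. Gdf10 in fibroblasts kept its direction in 11 of 11 (log2 HFD over LFD from -1.10 to -0.86) and Bmp2 in macrophages in 10 of 10 (-1.51 to -0.66). The differences below are on the log2 scale, and the cause was not tested.

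With 200 to 2500 genes and under 5% mitochondrial UMIs, HFD over LFD was -0.35 for Tgfb1 in macrophages, -3.14 for Bmp4 in fibroblasts and -2.88 for Gdf10 in Pi16 fibroblasts. Pi16 fibroblasts over fibroblasts were 0.75 for Tgfb2, -1.31 for Tgfb3 and 1.42 for Inhba, and Pi16 fibroblasts over macrophages 1.30 for Bmp2 and over endothelial barcodes -0.77 for Bmp4. Within the counting interval but by over 1.5 times, Tgfb1 in T cells went from -2.02 to -0.83, Bmp2 in Pi16 fibroblasts from -1.01 to -0.36 and in fibroblasts from -0.74 to 0.18, and Tgfb1 in Pi16 fibroblasts from 0.81 to -0.12. Thinned to 1000 UMIs, which leaves few UMIs, HFD over LFD was 0.54 and 0.20 for Tgfb1 in fibroblasts and macrophages, -1.13 and 0.042 for Tgfb2 in fibroblasts and Pi16 fibroblasts, -0.66 for Bmp2 in macrophages and -0.86 for Gdf10 in fibroblasts. Bmp4 in Pi16 fibroblasts over endothelial barcodes was then -2.46, and Bmp6 in endothelial barcodes over Pi16 fibroblasts turned from 1.46 to -0.15. Gdf10 in fibroblasts over Pi16 fibroblasts was 2.50 with doubled class thresholds, 1.59 with halved ones and 1.90 without mesothelial-marker barcodes. Leaving those out gave 0.55 for HFD over LFD of Tgfb3 in Pi16 fibroblasts, 0.38 for its Pi16 fibroblasts over fibroblasts and -0.86 for Bmp4 in Pi16 fibroblasts over endothelial barcodes. With at least 50 UMIs per gene, which tests fewer genes, pathway genes past 2-fold went from 9 to 4 in fibroblasts, from 8 to 5 in Pi16 fibroblasts and from 4 to 1 in T cells. In macrophages they went from 15 to 1 in the resident kind alone, and in T cells from 4 to 1 without barcodes with macrophage markers, both settings with fewer barcodes and genes tested.

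No paired analysis was possible because the diets share only 1 replicate number and no result comes from a test. Members with few UMIs, Bmp6, Inhba and Bmp4 above all, are limited by depth.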
